A study of Mus musculus with 6 samples.

Results

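B cell and plasma cell genes outside the immunoglobulin loci were followed in cultured CD4 T cells polarised to Th17. They are Cd79a, Cd79b, Ms4a1, Ebf1, Pax5, Jchain and Mzb1, and the rows of the deposited table with these symbols gave 7 genes of 33300 features. RNA came from 6 libraries, 3 of SLE1.2.3 mice and 3 of Control mice with the genotype WT, each from the cells of 1 mouse. SLE1.2.3 mice are a lupus-prone line, known to combine the Sle1, Sle2 and Sle3 loci. All mice were female and matched for age; the sources used here give neither the age nor the strain of the controls. In both groups naive CD4 T cells were cultured for 5 days on plates coated with antibodies to CD3 and CD28. The medium held IL-6 at 50 ng/mL, IL-23 and IL-1β at 10 ng/mL each and TGFβ1 at 1 ng/mL, with blocking antibodies to IL-4 and IFNγ at 10 µg/mL each. The question here is how much RNA of B lineage genes each library held.

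Mature B cells carry an antigen receptor made of membrane immunoglobulin and a signalling pair, Ig-alpha and Ig-beta, which Cd79a and Cd79b encode. The transcription factors EBF1 and PAX5 set up and hold the B cell state and turn on Cd79a, among other genes, while Ms4a1 encodes CD20, a surface protein of mature B cells. When a B cell becomes a plasma cell it shuts down Pax5 and much of the B cell program and turns to antibody secretion, with the J chain joining IgM and IgA into polymers and MZB1 helping immunoglobulin to fold and leave the endoplasmic reticulum. These genes are not part of the usual program of Th17 cells.

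The 250 bases before the RefSeq start site are shown for Jchain, the gene with the largest difference between the groups, and for Cd79a, a receptor gene whose groups overlapped. The first lies at chr5:88527898-88528147 on the minus strand and the second at chr7:24897247-24897496 on the plus strand (RefSeq, GRCm38.p6, the assembly also called mm10). Both are written 5′ to 3′, with matches to the E-box CANNTG in capitals.
Jchain: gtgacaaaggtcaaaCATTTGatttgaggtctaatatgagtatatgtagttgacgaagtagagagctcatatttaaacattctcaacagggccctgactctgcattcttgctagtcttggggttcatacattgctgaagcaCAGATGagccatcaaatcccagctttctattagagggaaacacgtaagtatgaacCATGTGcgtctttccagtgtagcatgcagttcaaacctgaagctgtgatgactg
Cd79a: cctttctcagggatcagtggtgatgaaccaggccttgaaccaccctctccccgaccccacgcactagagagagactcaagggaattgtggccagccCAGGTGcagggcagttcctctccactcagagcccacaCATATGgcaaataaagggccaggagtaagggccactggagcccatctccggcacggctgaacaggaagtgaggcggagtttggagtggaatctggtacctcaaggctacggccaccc
The Jchain window held 3 E-box matches and the Cd79a window 2, searched on both strands. An E-box match occurs in 66.2% of the 32851 RefSeq windows of this length. The octamer ATGCAAAT, found in 1.60% of those windows, had 0 matches in either. The base composition also differed, with 42% G and C for Jchain and 58.8% for Cd79a. As annotated with the deposited values, Cd79a starts at 24897381, so the last part of its window lies inside the gene. The table of promoters held 4 of the 7 genes, namely Jchain, Cd79a, Ebf1 and Pax5.

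The libraries were T cell libraries by their markers. The 12 T cell genes examined, Cd3e and Trac among them, summed to between 1836 and 2842 FPKM (reads per kb of transcript and per 1000000 assigned reads) in SLE1.2.3 libraries and between 2535 and 2691 FPKM in Control libraries. The 7 B cell and plasma cell genes together summed to 7.23, 6.80 and 9.65 FPKM in libraries 1, 2 and 3 of SLE1.2.3, against 2.73, 2.79 and 3.66 FPKM in Control libraries 1, 2 and 3. Depth, worked out from the step size of low FPKM values, ranged from 61.7 to 83.5 M assigned reads in SLE1.2.3 libraries and from 29.7 to 56.8 M assigned reads in Control libraries, where 1 M is 1000000, with Control 3 the shallowest. Features annotated as ribosomal RNA took 2.37% of the reads in Control 3 and at most 0.281% elsewhere. In bulk RNA, a larger number of cells of a type and more RNA per cell cannot be told apart.

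**Figure D1:**
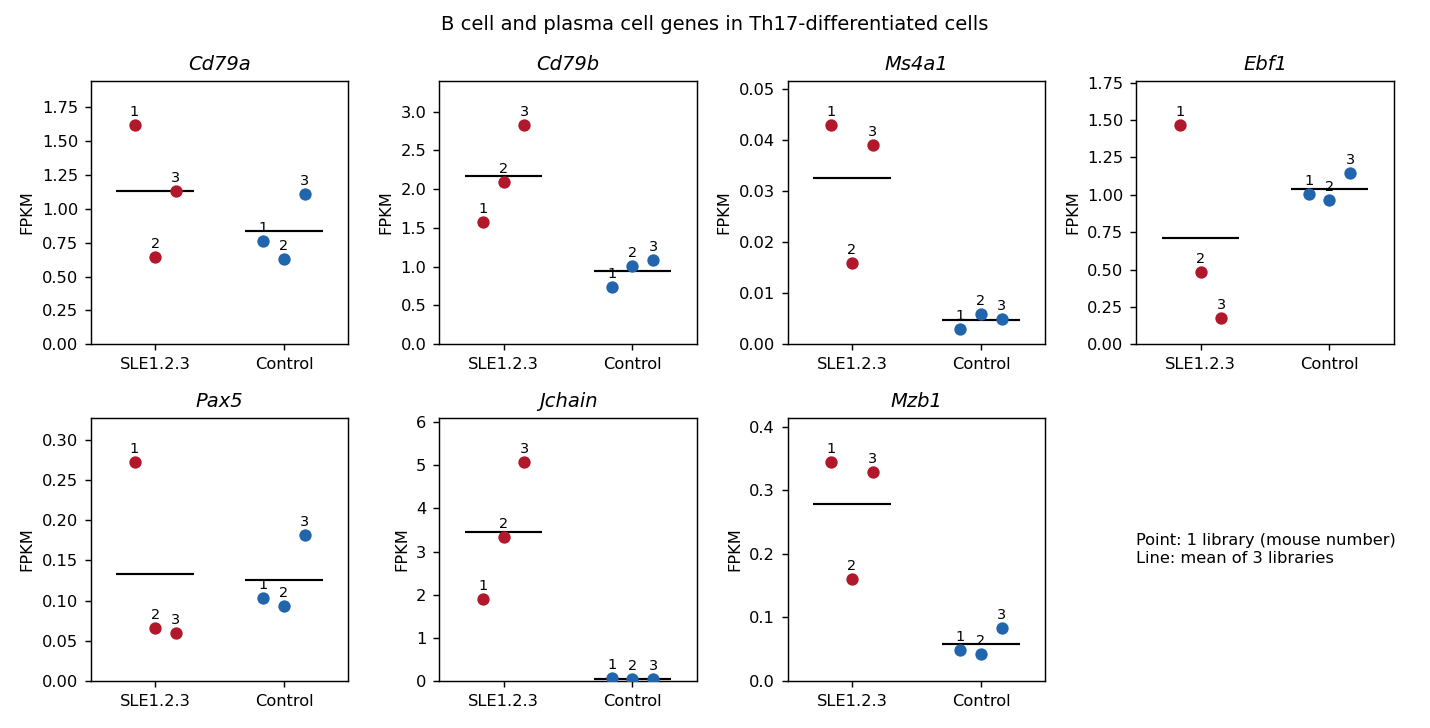
FPKM (y axis, linear from 0) of each of the 7 genes in the 3 SLE1.2.3 and the 3 Control libraries; a point is 1 library, labelled with its mouse number, and a line is the group mean. The groups did not overlap for Cd79b, Ms4a1, Jchain and Mzb1, while for Ebf1 and Pax5 SLE1.2.3 library 1 lay above and libraries 2 and 3 below the 3 controls.

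Jchain, which encodes the joining chain of polymeric IgM and IgA (ENSMUSG00000067149.6, chromosome 5, 88519809 to 88527891, minus strand, mm10), was higher in SLE1.2.3 cells. It had 1.91, 3.34 and 5.09 FPKM in libraries 1, 2 and 3 of SLE1.2.3, against 0.071, 0.042 and 0.053 FPKM in Control libraries 1, 2 and 3. The lowest SLE1.2.3 library was therefore far above the highest control, and the SLE1.2.3 libraries differed more among themselves than the controls did. The means were 3.44 ± 1.59 FPKM in SLE1.2.3 cells and 0.0553 ± 0.0146 FPKM in Control cells (SD, n = 3 each). Their ratio was 62.2. In reads this was 401, 518 and 962 in the SLE1.2.3 libraries against 9, 6 and 4 in the controls. The summed reads, scaled to depth, differed 61.5-fold, with a 95% interval from 39.3 to 102.4 that covers counting error only (exact, conditional on the total). The log2 change was 2.01 ± 0.26 (SE; limma on log2(FPKM + 1), adjusted p = 0.0094), a scale on which the change of a gene this low is understated.

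Across all genes 15.2% of the 11378 tested passed an adjusted p of 0.05 in either direction, 9.65% as higher in SLE1.2.3 cells and 5.58% as lower. Jchain and Cd79b were the 2 of the 7 genes that reached the filter for testing, a mean of 1 FPKM over the 6 libraries, and each passed as higher. Their Control means were under 1 FPKM, so each reached the filter only through the SLE1.2.3 libraries and had to be higher there. Both were without overlap between the groups, as was the case with SLE1.2.3 higher for 23.9% of the tested genes. Without the filter on the mean, Jchain had an adjusted p of 0.033 in limma, and a limma voom fit of the recovered reads of all 21743 features with at least 10 reads gave a log2 change of 5.76 ± 0.99 (SE; adjusted p = 0.021). That fit called 7.9% of the features, 4.47% as higher, and Jchain was the only one of the 7 genes it called. Leaving out Control 2, Control 3 or SLE1.2.3 library 2 brought the limma adjusted p for Jchain to 0.0538, 0.0501 and 0.0520, just above the threshold of 0.05, at log2 changes between 2.00 and 2.01.

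Mzb1, the chaperone gene of immunoglobulin-secreting cells (ENSMUSG00000024353.5, chromosome 18, 35647267 to 35649367, minus strand), was rare in every library. Its level was 0.345, 0.16 and 0.329 FPKM in libraries 1, 2 and 3 of SLE1.2.3, against 0.049, 0.043 and 0.083 FPKM in the controls. These levels rest on 35, 12 and 30 reads in the SLE1.2.3 libraries and on 3 reads in each control. The groups did not overlap. SLE1.2.3 was higher without overlap in 4 of the 7 genes, Jchain, Mzb1, Cd79b and Ms4a1, and in 15% of the 30034 features with a value above 0; it was lower without overlap in 0 of the 7 and in 10.9% of the features. The ratio of depth-scaled reads was 5.32, with a counting interval from 2.66 to 12.1. The voom fit of recovered reads did not call it (log2 change 2.15 ± 0.59 SE; adjusted p = 0.069), and the exact two-sided permutation test gave p = 0.1, the smallest that 3 libraries against 3 allow. The gene overlaps a SPATA24 gene model on its own strand, so reads of the shared stretch could belong to either.

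Of the antigen receptor pair, Cd79b was higher in SLE1.2.3 cells and Cd79a was under the filter, with overlapping groups. Cd79b, which encodes Ig-beta (ENSMUSG00000040592.11, chromosome 11, 106311341 to 106314762, minus strand), had 1.57, 2.096 and 2.83 FPKM in libraries 1, 2 and 3 of SLE1.2.3, against 0.736, 1.01 and 1.08 FPKM in Control libraries 1, 2 and 3. Every SLE1.2.3 library was above every control. The means were 2.17 ± 0.63 FPKM in SLE1.2.3 cells and 0.942 ± 0.182 FPKM in Control cells (SD, n = 3 each), 2.30 times as high. The log2 change was 0.69 ± 0.16 (SE; limma adjusted p = 0.040). This call was close to the threshold and was lost without the filter on the mean (adjusted p = 0.10), in the voom fit of reads (adjusted p = 0.060), and when Control 1, 2 or 3 or SLE1.2.3 library 2 or 3 was left out (adjusted p = 0.13, 0.12, 0.10, 0.14 and 0.062). The reads behind it were 188, 185 and 304 in the SLE1.2.3 libraries and 53, 82 and 46 in the controls. The ratio of depth-scaled reads was 2.32, with a counting interval from 1.97 to 2.75.

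Cd79a, which encodes Ig-alpha (ENSMUSG00000003379.7, chromosome 7, 24897381 to 24902197, plus strand), had 1.62, 0.645 and 1.13 FPKM in libraries 1, 2 and 3 of SLE1.2.3, against 0.764, 0.628 and 1.11 FPKM in the controls. The groups overlapped: library 2 lay among the controls, library 3 just above the highest control and library 1 above them all. The means were 1.13 ± 0.488 FPKM in SLE1.2.3 cells and 0.833 ± 0.247 FPKM in Control cells (SD, n = 3 each), and the mean over the 6 libraries, 0.983 FPKM, fell just under the filter. The voom fit gave a log2 change of 0.47 ± 0.40 (SE; adjusted p = 0.49), and the exact two-sided permutation test p = 0.4. The level of Cd79b over that of Cd79a was 0.972, 3.25 and 2.50 in SLE1.2.3 libraries 1, 2 and 3, against 0.963, 1.61 and 0.976 in the controls. SLE1.2.3 library 1 had the ratio of controls 1 and 3, while libraries 2 and 3 were above every control.

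Ms4a1, the CD20 gene (ENSMUSG00000024673.9, chromosome 19, 11249675 to 11266241, minus strand), was the lowest of the 7. It had 0.043, 0.016 and 0.039 FPKM in libraries 1, 2 and 3 of SLE1.2.3, against 0.003, 0.006 and 0.005 FPKM in the controls. This is 22, 6 and 18 reads in the SLE1.2.3 libraries and 1, 2 and 1 in the controls, each known to within 0.26 of a read because the deposited values are rounded. The groups did not overlap, and the ratio of depth-scaled reads was 7.15, with a counting interval from 2.61 to 27.3. The voom fit of reads did not call it (log2 change 2.32 ± 0.72 SE, adjusted p = 0.093). The exact two-sided permutation test gave p = 0.1, the smallest it can give here, so it could not have called any gene. An antisense gene, 4930526L06Rik, overlaps Ms4a1, and its reads cannot be told apart where the counting ignored strand.

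Ebf1, the early B cell factor gene (ENSMUSG00000057098.14, chromosome 11, 44617317 to 45008091, plus strand), was the highest of the 7 genes in Control 1 and Control 3. It had 1.47, 0.485 and 0.175 FPKM in libraries 1, 2 and 3 of SLE1.2.3, against 1.00, 0.964 and 1.14 FPKM in the controls. The controls lay close together, and the SLE1.2.3 libraries fell on either side of them, library 1 above and libraries 2 and 3 below. The reads were 1195, 292 and 128 in the SLE1.2.3 libraries and 493, 534 and 332 in the controls, so counting error is small against these gaps. The group means were 0.709 ± 0.675 FPKM in SLE1.2.3 cells and 1.04 ± 0.0945 FPKM in Control cells (SD, n = 3 each). With a log2 change of -0.998 ± 0.660 in the voom fit (SE; adjusted p = 0.38), no difference between the groups was detected over the spread of the SLE1.2.3 libraries.

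Pax5, the factor that holds B cell identity (ENSMUSG00000014030.15, chromosome 4, 44524757 to 44710487, minus strand), had the same layout at a lower level. It had 0.273, 0.066 and 0.06 FPKM in libraries 1, 2 and 3 of SLE1.2.3, against 0.103, 0.093 and 0.182 FPKM in the controls, or 202, 36 and 40 reads in SLE1.2.3 against 46, 47 and 48 in Control libraries. Library 1 was again above and libraries 2 and 3 below every control. The voom log2 change was -0.11 ± 0.62 (SE; adjusted p = 0.93). This layout, with SLE1.2.3 library 1 above and libraries 2 and 3 below all 3 controls, was seen in 2.06% of the features with a value above 0. It was also seen in Fcer2a, the CD23 gene of B cells, from a list of 15 surface and receptor genes. From 11 B cell transcription factor genes it was seen in the octamer-binding factor gene Pou2f2. Of 10 MHC class II genes, H2-DMb1 and H2-DMb2, which help load MHC class II, had this layout. It was absent from the 9 signalling genes and the 16 plasma cell and secretory genes. Among markers of other cells it was seen in 4 of the 12 T cell genes, Cd5, Trbc1, Trbc2 and Zap70, in 3 of the 9 myeloid genes, Lyz2, Csf1r and Adgre1, and in 1 of the 6 conventional dendritic cell genes, Flt3. Ebf1 overlaps Gm12158 and Pax5 overlaps 3 other annotated genes on the opposite strand, and Pax5 also holds Mir5120 on its own. Sle2 and Sle3 are known to lie on chromosomes 4 and 7, which carry Pax5 and Cd79a; whether either gene is inside an interval was not examined.

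**Figure D2:**
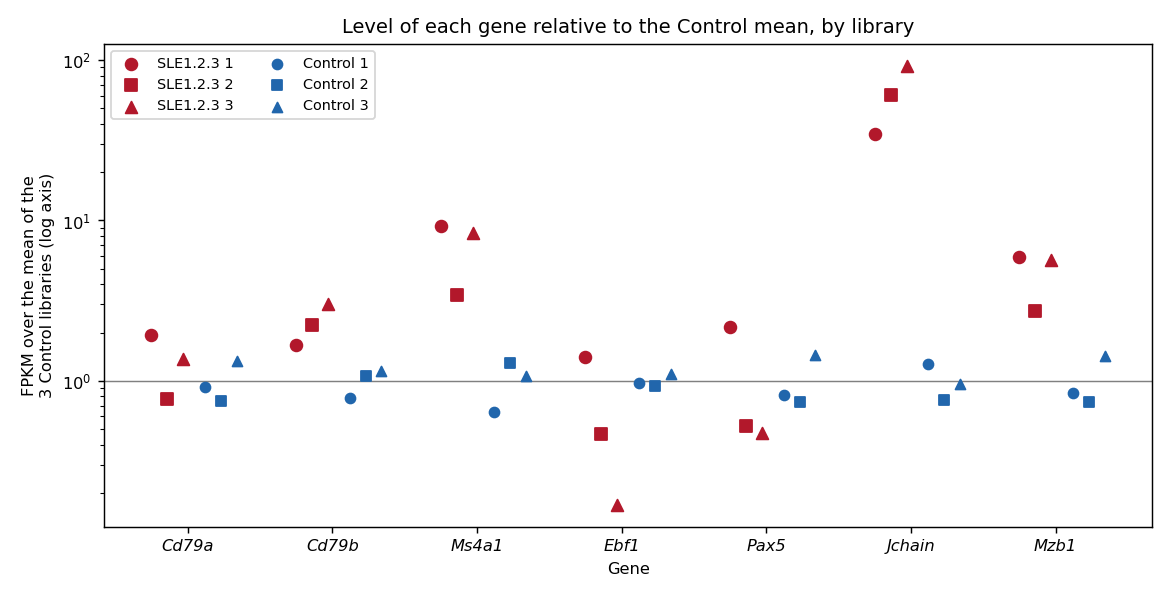
FPKM of each gene divided by the mean of the 3 Control libraries (y axis, log scale), with 1 symbol per library. Jchain stood at 34.5, 60.3 and 92.0 times the Control mean in SLE1.2.3 libraries 1, 2 and 3, while Ebf1 stood at 1.42, 0.468 and 0.169 times it.

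The SLE1.2.3 libraries therefore differed in which B lineage genes they held. Library 1 was the highest of the 3 for Cd79a, Ms4a1, Mzb1, Ebf1 and Pax5, and library 3 was the highest for Cd79b and Jchain. Library 1 was the highest of the 3 SLE1.2.3 libraries for 35.4% of the features with a value above 0 and library 3 for 36.4%. Jchain made up 26.4%, 49.0% and 52.7% of the summed FPKM of the 7 genes in SLE1.2.3 libraries 1, 2 and 3, against 2.60%, 1.51% and 1.45% in the controls. Ebf1 made up 20.3%, 7.13% and 1.81% in the SLE1.2.3 libraries, against 36.8%, 34.6% and 31.3% in the controls. The immunoglobulin light chain gene Igkc had 56.4, 86.2 and 152 FPKM in libraries 1, 2 and 3 of SLE1.2.3, against 0.971, 0.695 and 1.64 FPKM in the controls. The ratio of Jchain to Igkc was 0.0339, 0.0387 and 0.0335 in SLE1.2.3 libraries 1, 2 and 3, nearly the same proportion. It was 0.0731, 0.0604 and 0.0322 in the controls, where it rests on few Jchain reads. Other genes did not keep such a proportion. The ratio of Mzb1 to Jchain was 0.181, 0.0480 and 0.0647 in the SLE1.2.3 libraries. Igha, the IgA heavy chain gene, had 6.03, 4.31 and 8.18 FPKM there, against 0.164, 0.026 and 0.063 FPKM in the controls. Ighm, the IgM heavy chain gene, had the layout of Ebf1, with 74.1, 35.1 and 23.1 FPKM against 53.4, 60.7 and 58.2 FPKM.

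Other genes of the B lineage and of antigen presentation were read from 5 lists with 61 genes, of which 35 were tested, 10 were higher, 2 lower and 23 did not pass (limma). That is 34.3% called, against 15.2% of all tested genes, and members that are low in the controls reached the filter through the SLE1.2.3 libraries. Of 15 surface and receptor genes 3 were tested and 2 were higher. Cd72, a receptor that restrains B cell signalling, had 5.40, 6.75 and 9.72 FPKM in libraries 1, 2 and 3 of SLE1.2.3, against 2.60, 3.32 and 3.14 FPKM in the controls (log2 change 1.02 ± 0.19 SE; adjusted p = 0.023). The tetraspanin gene Cd37, expressed by T cells too, had 56.3 ± 3.59 FPKM in SLE1.2.3 cells and 40.2 ± 0.425 FPKM in Control cells (adjusted p = 0.012). Tnfrsf13b, which encodes the receptor TACI, had 15.1 ± 6.43 FPKM in SLE1.2.3 cells and 26.9 ± 0.879 FPKM in Control cells and did not pass (adjusted p = 0.070).

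Most of the surface genes that define B cells were too low to be tested. Vpreb3 had 0.515 ± 0.158 FPKM in SLE1.2.3 cells and 0.723 ± 0.0687 FPKM in Control cells. Fcmr, the IgM Fc receptor gene, had 0.69, 0.14 and 0.054 FPKM across the SLE1.2.3 libraries, against 2.13, 1.56 and 1.12 FPKM in the controls. It was under the filter, and the voom fit of reads called it lower (log2 change -3.10; adjusted p = 0.048), where 3.43% of the features passed as lower.

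Of 9 signalling genes of the B cell receptor 4 were tested and 2 were higher. Blk, a kinase gene of B cells that γδ T cells also express, had 1.73, 12.4 and 29.97 FPKM in libraries 1, 2 and 3 of SLE1.2.3, against 0.155, 0.072 and 0.087 FPKM in the controls (log2 change 3.24 ± 0.82 SE; adjusted p = 0.047, and 0.21 in the voom fit of reads). Dapp1, an adaptor gene, had 7.85 ± 0.957 FPKM in SLE1.2.3 cells and 5.72 ± 0.328 FPKM in Control cells (adjusted p = 0.042, and 0.066 in the voom fit of reads). Without the filter on the mean, 0 of these 9 genes passed in limma, beside 798 of 30034 features. The phospholipase gene Plcg2 and the adaptor gene Pik3ap1 did not pass (adjusted p = 0.24 and 0.73). Lyn, a Src-family kinase gene under the filter, had 0.627, 0.788 and 1.52 FPKM across the SLE1.2.3 libraries, against 0.146, 0.134 and 0.173 FPKM in the controls, and the voom fit called it higher (adjusted p = 0.026).

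Of 11 transcription factor genes 8 were tested and 0 passed in limma, with 2 under an unadjusted p of 0.05 and 0 of all 11 called in the voom fit. After rescaling to a common FPKM sum, or without SLE1.2.3 library 3, 1 passed as higher, beside 1006 of all 11392 and 732 of all 11321 tested genes. Without SLE1.2.3 library 1, 2 were higher and 3 lower, beside 2122 higher and 1583 lower of all 11378 tested genes. The list's median log2 change was -0.0037, beside 0.013 for all tested genes. Tcf3, the E protein gene, had 43.8 ± 6.97 FPKM in SLE1.2.3 cells and 49.1 ± 3.24 FPKM in Control cells (adjusted p = 0.35). Pou2f2 had 13.6 ± 5.19 FPKM in SLE1.2.3 cells and 13.7 ± 1.13 FPKM in Control cells (adjusted p = 0.87), and Foxo1 had 13.8 ± 1.04 FPKM in SLE1.2.3 cells and 13.2 ± 0.958 FPKM in Control cells (adjusted p = 0.65). All 3 are also expressed in T cells.

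Genes of plasma cell factors and of the secretory pathway went both ways. Of 16 listed, 13 were tested, 6 were higher, 2 lower and 5 did not pass. Without the filter on the mean 1 was higher and 0 lower, beside 488 higher and 310 lower of 30034 features. In the voom fit of reads 3 were higher and 2 lower, where 4.47% of the features passed as higher and 3.43% as lower. Prdm1, which encodes BLIMP1, a repressor used by plasma cells and by effector T cells, had 5.19, 13.5 and 19.0 FPKM in libraries 1, 2 and 3 of SLE1.2.3, against 0.406, 0.555 and 0.627 FPKM in the controls (log2 change 2.99 ± 0.41 SE; adjusted p = 0.010). It too reached the filter only through the SLE1.2.3 libraries. Derl3, an endoplasmic reticulum quality control gene, had 2.51, 3.06 and 1.82 FPKM across the SLE1.2.3 libraries, against 0.997, 1.16 and 1.22 FPKM in the controls (adjusted p = 0.030). The elongation factor gene Ell2, the signal peptidase gene Sec11c, the disulfide isomerase gene Txndc5 and Tent5c, a poly(A) polymerase gene, were higher by 0.79, 0.89, 0.30 and 0.44 on the log2 scale.

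Xbp1, the factor that expands the secretory machinery of plasma cells, was lower. It had 54.6, 47.4 and 43.0 FPKM in libraries 1, 2 and 3 of SLE1.2.3, against 91.7, 74.4 and 67.2 FPKM in the controls, with no overlap (log2 change -0.67 ± 0.14 SE; adjusted p = 0.029). Edem2, which marks misfolded glycoproteins for disposal, was lower as well (log2 change -0.57 ± 0.14 SE; adjusted p = 0.042). Irf4, a factor that plasma cells and Th17 cells both need, had 57.4 ± 24.2 FPKM in SLE1.2.3 cells and 112 ± 14.1 FPKM in Control cells, with no overlap (adjusted p = 0.056). The chaperone genes Hsp90b1 and Pdia4 did not pass (adjusted p = 0.49 and 0.48), and Tnfrsf17, the BCMA gene of plasma cells, was at most 0.029 FPKM across SLE1.2.3 libraries and 0.041 FPKM in Control libraries.

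Of 10 MHC class II genes, which B cells and other antigen-presenting cells express, 7 were tested and 0 passed in limma, with 2 under an unadjusted p of 0.05. Without SLE1.2.3 library 1, whose levels lay nearest to the controls for the genes named here, 6 passed as lower. In that fit 3705 of all 11378 tested genes passed, 1583 of them as lower. Cd74, the invariant chain gene, had 40.7, 20.4 and 13.4 FPKM in libraries 1, 2 and 3 of SLE1.2.3, against 42.4, 36.6 and 35.7 FPKM in the controls (adjusted p = 0.20). H2-Ab1 had 15.2 ± 8.22 FPKM in SLE1.2.3 cells and 24.0 ± 3.76 FPKM in Control cells (adjusted p = 0.23), and H2-DMa had 5.22 ± 2.35 FPKM in SLE1.2.3 cells and 8.29 ± 0.626 FPKM in Control cells (adjusted p = 0.14). The voom fit of reads called 2 members under the filter, Ciita higher (adjusted p = 0.021) and H2-Ob lower (adjusted p = 0.042). Ciita, the class II transactivator gene, was at 0.370 ± 0.132 FPKM in SLE1.2.3 cells and 0.0607 ± 0.0289 FPKM in Control cells. Library 1 was the highest SLE1.2.3 library for 9 of these 10 genes, 12 of the 15 surface genes and 9 of the 11 transcription factor genes, and also for 10 of the 12 T cell genes. For the 9 signalling genes, library 1 was the highest in 4 and library 3 in 5. For the 16 plasma cell and secretory genes these numbers were 6 and 7. Of all features with a value above 0, library 1 was the highest for 35.4%.

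**Figure D3:**
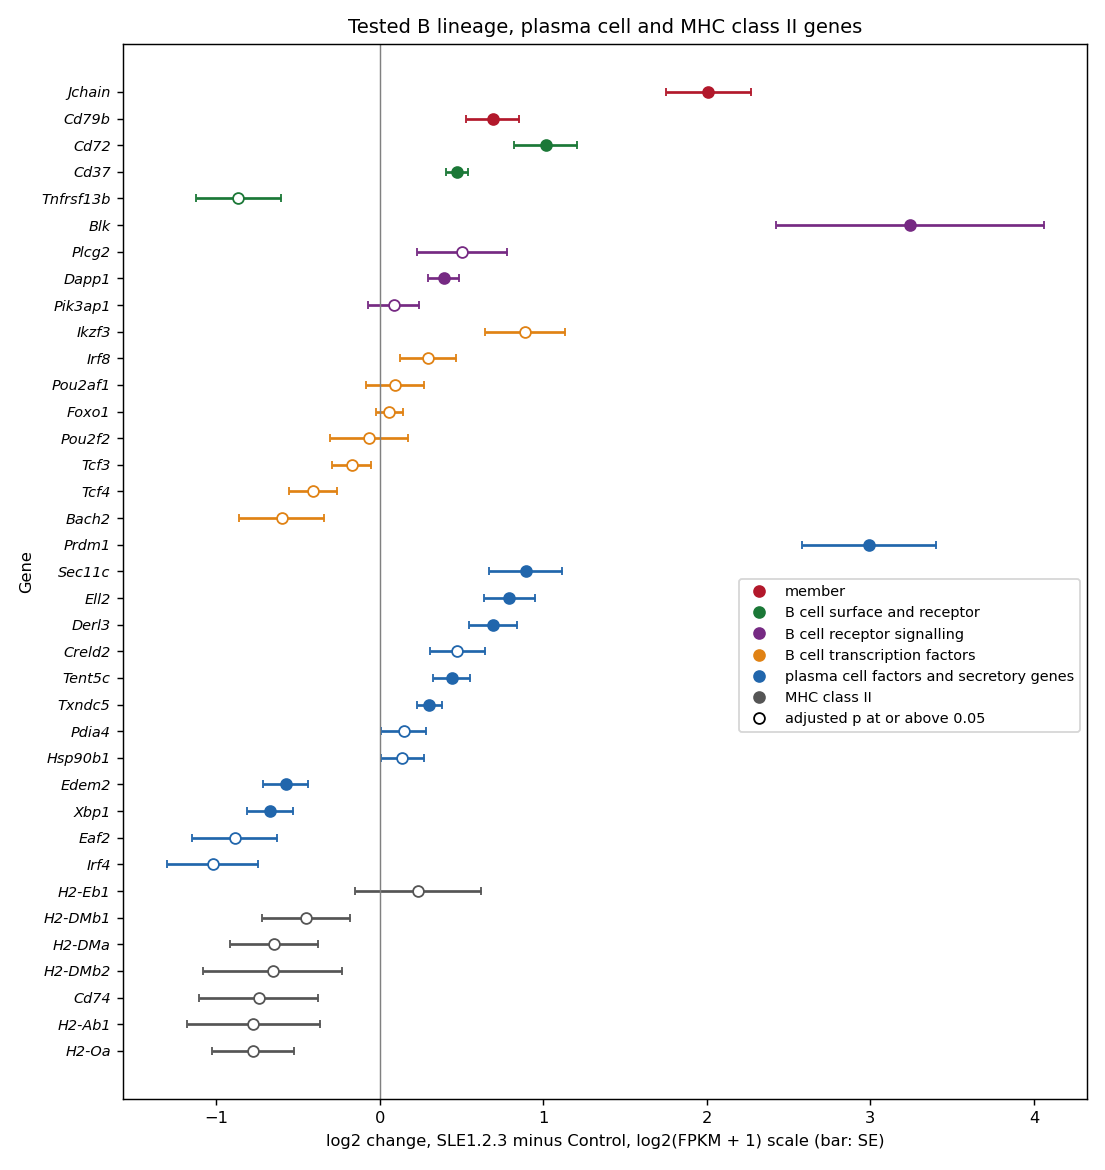
Log2 change, SLE1.2.3 minus Control, on the log2(FPKM + 1) scale (x axis) with its SE (bar) for Jchain, Cd79b and the 35 tested genes of the 5 lists (y axis); filled points passed an adjusted p of 0.05. Blk, Prdm1 and Jchain lie farthest to the right, and the 7 MHC class II genes and the 8 transcription factor genes have open points.

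The 12 companion calls depended on single libraries, as did the calls over all genes. They numbered 0 when Control 1, Control 2, Control 3 or SLE1.2.3 library 2 was left out, with between 15 and 18 genes under an unadjusted p of 0.05 in those 4 fits. Over all tested genes, 1733 calls became 313 of 11400, 258 of 11404, 272 of 11388 and 206 of 11368 in the same fits. The companion calls numbered 29 without SLE1.2.3 library 1, which included all 12, and 7 without SLE1.2.3 library 3. Over all tested genes these fits called 3705 of 11378 and 1259 of 11321.

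Markers of other cells were read in the same libraries. The 7 γδ T cell genes, Trdc and Trgc1 among them, summed to 48.1, 214 and 466 FPKM in libraries 1, 2 and 3 of SLE1.2.3, against 2.39, 2.40 and 3.12 FPKM in the controls, all 7 without overlap. Each had a Control mean under 1 FPKM, so it reached the filter only through SLE1.2.3 and had to be higher there; 6 passed in limma and 1, Zbtb16, in the voom fit of reads. The 8 CD8 T and NK cell genes summed to 30.3, 90.5 and 155 FPKM across the SLE1.2.3 libraries, against 11.6, 12.2 and 10.95 FPKM in the controls, with 6 of 8 without overlap, 2 of the 4 tested passing as higher, and the NK cell receptor gene Ncr1 at most 0.032 FPKM. The 12 T cell genes, with 2842, 2292 and 1836 FPKM in libraries 1, 2 and 3 of SLE1.2.3, ranked these libraries in the opposite order, with library 1 above and libraries 2 and 3 below the controls. Of the 12, 0 passed in limma, with 2 under an unadjusted p of 0.05 and 0 called by voom. Of the 7 CD8 T and NK cell genes that voom tested, it called 3 as higher. Over all features with a value above 0, SLE1.2.3 was higher without overlap in 15%. Of all tested genes, 9.65% passed as higher in limma, and of the voom features 4.47%. The γδ and CD8 sums rank SLE1.2.3 libraries 1, 2 and 3 as Jchain, Cd79b, Blk and Prdm1 do, and their part in those differences was not tested. The 9 myeloid genes summed to 12.9, 5.34 and 3.98 FPKM across the SLE1.2.3 libraries, against 8.88, 9.78 and 10.3 FPKM in the controls, with 1 of 3 tested, Cd68, passing as lower, and ranking library 1 first, as Ebf1 and Pax5 do; their part was not tested either. Of 6 plasmacytoid dendritic cell genes, a cell type that also expresses Mzb1, the defining gene Siglech was at or near 0, reaching 0.004 FPKM in SLE1.2.3 and 0.01 FPKM in Control libraries. The 6 summed to between 7.65 and 14.3 FPKM across SLE1.2.3 libraries and between 3.03 and 3.63 FPKM in Control libraries, mostly Runx2, which T cells also express. The 6 conventional dendritic cell genes summed to at most 5.79 FPKM across SLE1.2.3 libraries and 0.639 FPKM in Control libraries, mostly Xcr1 in SLE1.2.3, with Cd209a at 0 in all SLE1.2.3 libraries. The 9 red cell and platelet genes summed to at most 10.4 FPKM across SLE1.2.3 libraries and 1.01 FPKM in Control libraries, mostly Pf4 and Ppbp in SLE1.2.3, with Slc4a1 at 0 in all 6 libraries. In the plasmacytoid, conventional dendritic and red cell lists, 1 gene each was tested and passed as higher in limma. Voom called 2 of 3, 0 of 4 and 0 of 6 as higher. Without overlap, 2 of 6, 2 of 6 and 5 of 9 were higher, and 1, 1 and 0 lower.

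The tested genes whose profiles were most like those of Jchain and Cd79b were ranked by the root mean square difference of centred log2(FPKM + 1) values over the 6 libraries. For Jchain the nearest named genes were Iglon5 (0.067), the immunoglobulin segments Ighv1-53 (0.091) and Igkv4-91 (0.11), the inhibitor of E proteins Id2 (0.12) and the nucleotidase gene Nt5c1a (0.14), with 1 unnamed predicted gene or pseudogene passed over. Id2 had 149, 296 and 350 FPKM in libraries 1, 2 and 3 of SLE1.2.3, against 62.8, 60.7 and 60.9 FPKM in the controls. For Cd79b the nearest were Rcbtb2 (0.038), Dusp12 (0.047), Cyp4v3 (0.054), Olfr525 (0.055) and Arhgap25 (0.058). No immunoglobulin segment was among these 5, and the values describe likeness over the same 6 libraries without a test.

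**Figure D4:**
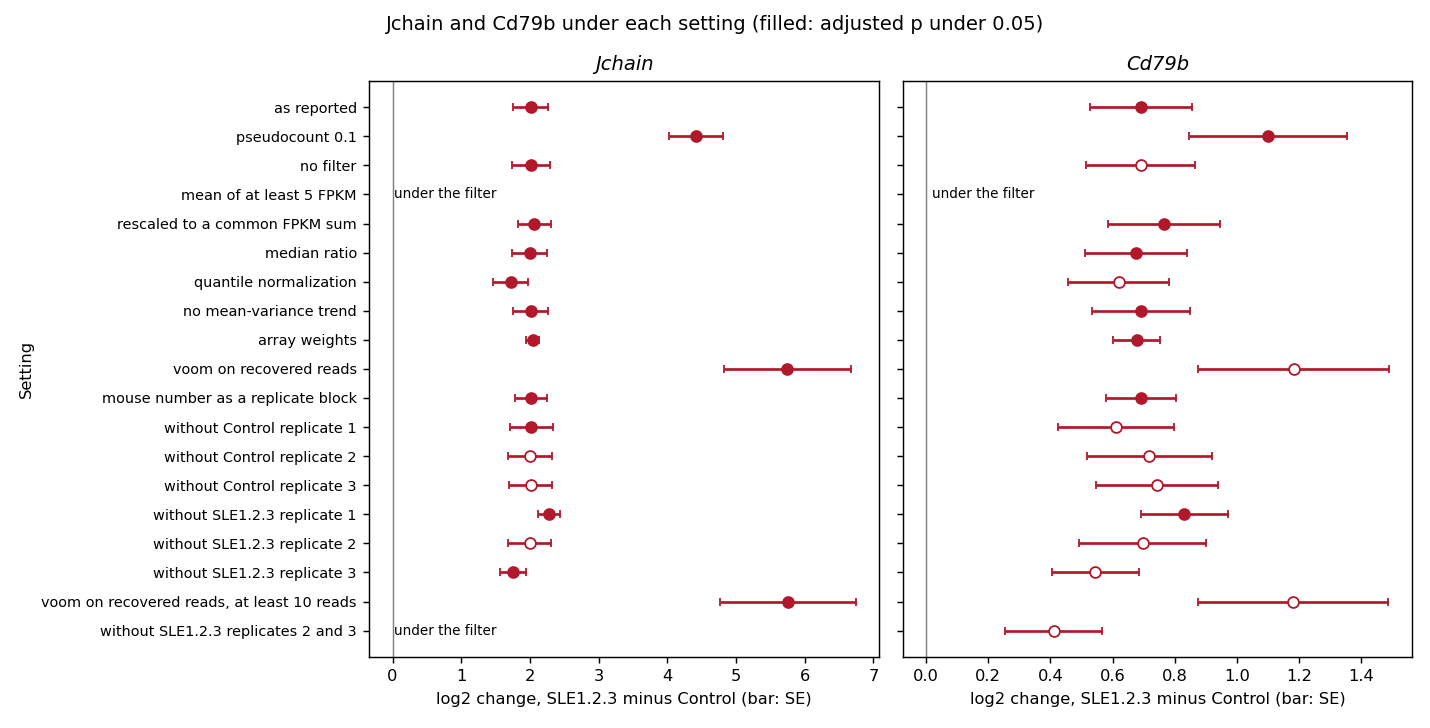
Log2 change, SLE1.2.3 minus Control (x axis, with SE bars), of Jchain and Cd79b under the reported fit and each alternative setting (y axis); filled points have an adjusted p under 0.05. Jchain stayed between 1.72 and 5.76 and Cd79b between 0.41 and 1.18, and Cd79b has open points in 10 settings. The settings with voom have no pseudocount of 1 and so give larger log2 changes of low genes.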

How the data were processed

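Polyadenylated RNA of 6 libraries, each from 1 mouse, was made into libraries with a SMARTER kit and sequenced, according to the labels' protocols. Listed in the submitters' processing notes, without their roles, are STAR 2.7.3a, cutadapt 2.10, DESeq2 1.24.0, FastQC 0.11.9 and featureCounts 2.0.0, and mm10 as the build. The authors deposited FPKM values for 33300 features; value times length in kb sums to 1000000 in each library. The sources used here give no annotation release or strand setting.

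Features with a mean of at least 1 FPKM were tested as log2(FPKM + 1) with limma 3.58.1 in R 4.3.3 (mean-variance trend, genotype as the only term, Benjamini-Hochberg over 11378 genes, threshold 0.05, two-sided). Read numbers were worked out from the step size of the low FPKM values: 100% of values under 30 reads in short features were whole within 0.15 of a read. At 3 reads, a gene listed at 0 could have up to 0.0359 reads per 1000000 in SLE1.2.3 library 1 and 0.101 in Control 3, counting error only. No 2 libraries held identical values, and p-values reflect only the spread among these 6 mice. The scripts were tested on simulated data. The genes and lists were chosen with earlier results of these data known. All 7 genes were named, with every list gene past the threshold, up to 3 others per list by mean level, and the 5 nearest profiles. Fcer2a, Ciita, H2-Ob, Tnfrsf17, Igha and the genes sharing the layout of Ebf1 were named after their values were seen. Alternatives were another pseudocount, filters, 3 scalings, other variance settings, voom on recovered reads, the mouse number as a block and each mouse left out. Voom on features with at least 10 reads, and a fit lacking both mouse 2 and mouse 3 of SLE1.2.3, were added after seeing the data.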

Additional observations from a re-analysis of the deposited data

How the results depend on the processing

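Jchain was higher in SLE1.2.3 cells in every setting that tested it and passed in all but 3, those without Control 2, Control 3 or SLE1.2.3 mouse 2; its log2 change ranged from 1.75 to 2.28 with 1 mouse left out. Cd79b kept its sign but lost its call in 10 settings, with log2 changes of 0.69 without the filter, 0.62 under quantile normalization, 1.18 with voom under either filter, 0.41 lacking both mouse 2 and mouse 3 of SLE1.2.3, and 0.54 to 0.83 with 1 mouse left out. The number of the 7 genes called, 2 as reported, was 1 without the filter, under quantile normalization and with voom under either filter, and 0 with a mean of at least 5 FPKM, where none was tested, or lacking those mice, where Jchain was under the filter and not tested (limma, with the lone SLE1.2.3 library assumed to vary like the controls; Cd79a and Cd79b, 2 in all, under an unadjusted p of 0.05). It ranged from 0 to 2 with 1 mouse left out. The 12 companion calls became 2 without the filter, 30 with array weights, 7 with the replicate block (3 higher and 4 lower, against 10 and 2 as reported; 1 and 4 among the plasma cell and secretory genes, against 6 and 2), 5 lacking those mice, and 0 to 29 with 1 mouse left out. Over all genes, 1733 calls became 798 without the filter, 1129 at a mean of at least 5 FPKM, 6952 with array weights (whose iteration stopped before convergence), 940 with the replicate block, 659 lacking those mice, and 206 to 3705 with 1 mouse left out. The cause of these shifts was not tested. Of the calls 63.4% were higher as reported, 74.2% after rescaling to a common FPKM sum, which moved the median log2 change of all genes to 0.11, 51.1% under quantile normalization and 54.1% with array weights. The mouse numbers were not shown to pair the samples: deviations of same-numbered mice correlated at -0.0040, 0.10 and 0.091 across genes, and the block kept Jchain and Cd79b called. Depth limits Ms4a1 and Mzb1, at 1 to 3 reads per control.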
